A study of Mus musculus with 5 samples.

Results

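Of 23183 gene symbols in the count tables of a mouse lung study, 96 name nuclear genes for parts of the mitochondrial respiratory chain and ATP synthase. They were taken by symbol alone, as every row that starts with Nduf, Uqcr, Sdh followed by a letter from a to d, Cox4 to Cox8, or Atp5. Of the 96 members, 94 were measured, which means a mean of at least 1 CPM (a count scaled to a common library total) over the 5 libraries. The remaining members, Cox7b2 and Cox8c, had 0 counts in all 5 libraries. Whole lungs of female, wild-type BALB/c mice gave 1 RNA library for each of 5 groups. The control group carries no exposure in its label. The PM10 group received inhalable particulate matter in the nose, 4 times within 2 weeks. The PM10/OVA group received the same particles and ovalbumin, a protein allergen, which was injected into the abdomen and later given in the nose. The PM10/OVA/CPX group had both exposures and 6 abdominal injections of a chitinase-1 inhibitor, CPX, spread over 3 weeks. The PM10/OVA/Dex group had both exposures and 3 abdominal injections of dexamethasone, a synthetic glucocorticoid, during the final week. All lungs were collected 2 days after the final challenge. The dose of each agent, and the number of animals in a library, were not given in the sources used here. Values listed "with CPX" and "with Dex" are those of the PM10/OVA/CPX and PM10/OVA/Dex libraries. Where 5 values stand without library names, they follow the order in which the groups are introduced here.

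The respiratory chain sits in the inner mitochondrial membrane. Complex I takes electrons from NADH and complex II takes them from succinate, ubiquinone carries them to complex III, cytochrome c carries them on to complex IV, and complex IV passes them to oxygen. Complexes I, III and IV pump protons, and complex V, the ATP synthase, uses the return of those protons to make ATP. A few subunits of complex I, III, IV and V are encoded in mitochondrial DNA. These carry other names, fall outside the rule and were not analysed here. Several subunits of complex IV exist as a ubiquitous isoform and an isoform restricted mostly to heart and skeletal muscle. Heart muscle and brown fat hold many mitochondria and high levels of these transcripts, and heart muscle cells also line the lung veins of mice.

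By role, the measured members were 36 subunits of complex I, 4 of complex II, 8 of complex III, 18 of complex IV, 17 rows of complex V and 11 assembly factors, which help to build complexes I and II. Ndufa4 and its relative Ndufa4l2 were counted with complex IV, where NDUFA4 is now placed. Atp5s and Atp5sl were placed with complex V by symbol alone and are not regarded here as its subunits. Library totals ran from 11993222 to 16929068 counts and scaling factors from 0.989 to 1.02. Lung markers were abundant in every library, with the alveolar type 2 cell gene Sftpc at 12730 to 13990 CPM and the alveolar type 1 cell gene Ager at 1369 to 1697 CPM. The control library stood apart in its levels of heart muscle and fat markers. A list of 19 heart muscle markers, of which 18 were measured, summed to 3792 CPM in control, 787 after PM10, 342 after PM10/OVA, 296 with CPX and 771 with Dex. White fat markers summed to 600.4, 89.0, 69.5, 65.8 and 198 CPM. Since each group is 1 library, no difference below has a replicate check and none was tested. In whole tissue, fewer cells of a type and less RNA per cell cannot be told apart.

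The 94 members together took 0.848% of the counts in control, 0.726% after PM10, 0.842% after PM10/OVA, 0.879% with CPX and 0.781% with Dex. The exact binomial 95% interval of each share, which covers counting error only, is 0.843% to 0.852% in control and 0.721% to 0.731% in PM10, and it is similarly narrow in the other libraries. The share was therefore lowest in PM10 and highest in PM10/OVA/CPX. Gene by gene, 56 of the 94 members had their lowest level in PM10, against 18.4% of all 14305 measured genes. PM10/OVA/CPX held the highest level of 55 members, against 20.8% of all measured genes. Control held the highest level of 17 members, against 24.6% of all measured genes. No member was highest in PM10, against 18.3% of all measured genes. These shares are not matched on transcript length: the median was 763 bases for the members and 2688 for all measured genes with a length. The 1161 measured genes shorter than 1000 bases had a median log2 ratio of 0.09 in PM10/OVA/CPX against PM10/OVA. The part of length in these counts was not tested. On the log2(CPM + 1) scale, the median deviation of the members from their own mean over the 5 libraries was -0.02 in control, -0.15 after PM10, 0.07 after PM10/OVA, 0.18 with CPX and -0.05 with Dex. These differences are small. For 76 of the 94 members the highest level was less than 1.5 times the lowest, and the median of that ratio was 1.31. Ndufa11 had the narrowest range, 1.08-fold, and Cox8b the widest, 10.6-fold.

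**Figure D1:**
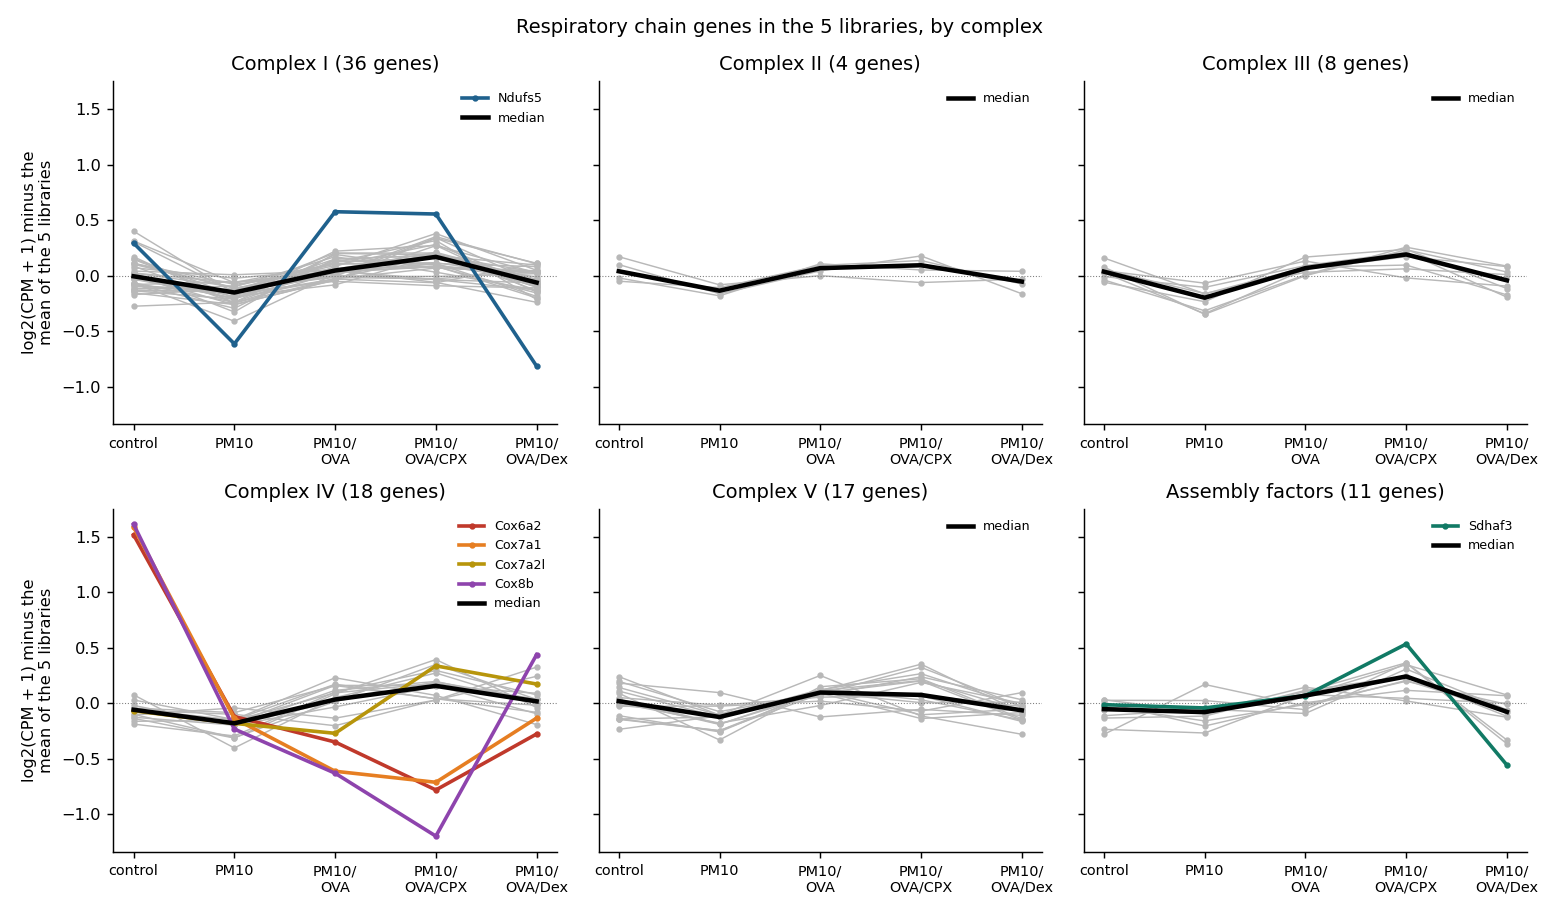
Level of each measured member in each library as log2(CPM + 1) minus its mean over the 5 libraries, in 6 panels by complex. Lines join the values of 1 gene, the black line is the median and named genes are coloured. The medians dip in PM10 and peak in PM10/OVA/CPX in all panels but that of complex V, where the peak is in PM10/OVA, while Cox6a2, Cox7a1 and Cox8b are high in control alone and Ndufs5 is low in PM10 and PM10/OVA/Dex.

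Complex I is the entry point for electrons from NADH. Its 7 nuclear core subunits, which carry the flavin, the iron-sulphur clusters and the ubiquinone site, all had their lowest level in PM10, and 5 of the 7 were highest in control. Ndufv1, which binds the flavin (chr19:4007384-4012806, minus strand, in the GENCODE M21 annotation of GRCm38), was at 105 CPM in control, 71.2 after PM10, 76.5 after PM10/OVA, 74.4 with CPX and 73.4 with Dex. Ndufs1, the largest core subunit (chr1:63143596-63176833, minus strand), was at 102, 74.6, 82.9, 80.7 and 75.5 CPM. For both genes control stood above the other 4 libraries. Ndufs8, an iron-sulphur subunit, had another order, with 54.2 CPM in control, 51.4 after PM10, 69.7 after PM10/OVA, 72.3 with CPX and 53.7 with Dex. It was high in PM10/OVA and PM10/OVA/CPX and low in the other 3 libraries.

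The 29 accessory subunits of complex I surround the core. Of these, 17 were lowest in PM10 and 18 were highest in PM10/OVA/CPX. Ndufa6, the complex I gene with the highest level per transcript length, was at 61.2 CPM in control, 56.8 after PM10, 66.4 after PM10/OVA, 86.6 with CPX and 73.8 with Dex. Ndufa2 was at 58.9, 60.4, 75.7, 93.3 and 73.9 CPM, and Ndufb6 at 26.6, 26.3, 33.9, 33.9 and 26.6 CPM. Ndufs5 (chr4:123712710-123718202, minus strand), an accessory subunit despite its name, departed from all of these. Its counts were 212 in control, 73 after PM10, 239 after PM10/OVA, 186 with CPX and 61 with Dex, which correspond to 12.2, 6.05, 15.1, 14.9 and 5.13 CPM. It was low in PM10 and PM10/OVA/Dex and between 2.02 and 2.94 times as high in the other 3. Its level is uncertain, because a processed pseudogene, BC002163, matches 319 bases of its transcript at 99.4% identity. BC002163 has a row of its own with 12, 5, 3, 7 and 6 counts, and how reads that fit both were assigned is not known. The same holds more widely: 20 of the 95 members with an annotation entry have a pseudogene copy of at least 95% identity over at least 200 bases, and 31 have exons that overlap a gene on the opposite strand.

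Complex II, succinate dehydrogenase, also belongs to the citric acid cycle and is encoded wholly in the nucleus. All 4 of its subunits were lowest in PM10. Sdha, the flavin subunit (chr13:74322254-74350280, minus strand), was at 288 CPM in control, 241 after PM10, 256 after PM10/OVA, 245 with CPX and 250.0 with Dex. Sdhb, the iron-sulphur subunit, was at 102, 84.7, 97.8, 108 and 84.7 CPM in that order. The membrane anchors had similar ranges, with Sdhc at 103, 92.1, 113, 108 and 108 CPM and Sdhd at 77.1, 74.1, 85.2, 87.9 and 75.8 CPM. The highest of the 5 libraries was thus control for Sdha, PM10/OVA for Sdhc and PM10/OVA/CPX for Sdhb and Sdhd.

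Complex III passes electrons from ubiquinol to cytochrome c. Of its 8 measured members, 5 were lowest in PM10 and the other 3, Uqcrb, Uqcrc1 and Uqcrc2, were lowest in PM10/OVA/Dex, while 6 were highest in PM10/OVA/CPX. Uqcrh, the hinge subunit and the complex III gene with the highest level per length (chr4:116066965-116075071, minus strand), was at 120 CPM in control, 98.6 after PM10, 124 after PM10/OVA, 147 with CPX and 131 with Dex. Uqcrc2, a core structural subunit, was at 163, 130, 154, 156 and 129 CPM. Uqcr10, a small accessory subunit, was at 72.9, 54.0, 69.0, 81.3 and 70.6 CPM, lowest in PM10.

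Complex IV, cytochrome c oxidase, divided into ubiquitous subunits and isoforms of restricted expression. Cox4i1 (chr8:120668222-120674207, plus strand), the ubiquitous subunit IV, had the highest level per transcript length of all members, a mean of 379 CPM per kb over the 5 libraries. It was at 274 CPM in control, 249 after PM10, 289 after PM10/OVA, 326 with CPX and 292 with Dex. Ndufa4 was at 140 CPM in control, 100 after PM10, 138 after PM10/OVA, 161 with CPX and 132 with Dex. Of the 18 complex IV genes, 10 were lowest in PM10 and 9 highest in PM10/OVA/CPX. Cox7a2l (chr17:83501918-83517330, minus strand), which encodes a factor that joins complexes III and IV into supercomplexes, had its lowest level elsewhere. It was at 179 CPM in control, 165 after PM10, 155 after PM10/OVA, 237 with CPX and 211 with Dex, so both treated libraries lay above the other 3.

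The 3 muscle isoforms of complex IV had by far the widest ranges of all members. Cox6a2 (chr7:128205435-128206387, minus strand) was at 43.6 CPM in control, 13.3 after PM10, 11.2 after PM10/OVA, 8.07 with CPX and 11.9 with Dex. Cox7a1 (chr7:30184144-30186078, plus strand), an isoform of heart, skeletal muscle and brown fat, was at 24.7, 6.79, 4.61, 4.23 and 6.81 CPM. Cox8b (chr7:140898945-140900446, minus strand), of the same tissues, was at 17.8, 4.23, 2.97, 1.68 and 7.32 CPM. All 3 were highest in control and lowest in PM10/OVA/CPX. Their ubiquitous counterparts lay in narrow ranges, 112 to 147 CPM for Cox6a1, 76.9 to 116 CPM for Cox7a2 and 122 to 155 CPM for Cox8a. As a share of the counts of its pair, Cox6a2 made up 27.1% in control (exact binomial 95% interval 25.5% to 28.8%), 10.7% after PM10, 7.48% after PM10/OVA, 5.21% with CPX and 8.48% with Dex. For Cox7a1 the shares were 23.0%, 8.12%, 4.34%, 3.52% and 6.40%, and for Cox8b 12.7%, 3.33%, 1.99%, 1.07% and 4.97%. In percentage points, the isoform balance thus differed most between control and the other 4 libraries. As a ratio this does not hold for Cox8b, whose share was 4.97% with Dex and 1.07% with CPX.

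The summed levels of the heart muscle, white fat and brown fat lists were also highest in control, although single markers differed. Dio2, of the brown fat list, had a log2 ratio of 0.12 in PM10/OVA against control. Myh6, the heart myosin heavy chain, was at 1182 CPM in control, 304 after PM10, 92.3 after PM10/OVA, 75.1 with CPX and 264 with Dex. Ckm, the muscle creatine kinase, was at 56.3, 16.6, 6.31, 7.35 and 14.9 CPM. In PM10 against control, Ckm had the lowest log2 ratio of a list of 12 skeletal muscle markers, of which 6 were measured. The median of these markers was -0.37, with 4 below 0 and 2 above. The brown fat gene Ucp1 had 93 counts in control, 0 after PM10, 0 after PM10/OVA, 0 with CPX and 3 with Dex. The part of heart or fat tissue in the isoform levels was not tested. Other tissue-restricted members did not share the pattern. Cox4i2, the subunit IV isoform of lung and of pericytes, made up 12.1% to 12.9% of the counts of its pair with Cox4i1 in all 5 libraries. Cox6b2, a testis isoform, was at 6.31 to 8.49 CPM although 6 other testis genes summed to between 0 and 6 counts per library. Ndufa4l2, a gene of pericytes and of the response to low oxygen, was at 19.5 CPM in control, 19.0 after PM10, 17.6 after PM10/OVA, 20.8 with CPX and 25.8 with Dex. Its share of the counts of its pair with Ndufa4 ran from 11.35% in PM10/OVA to 16.34% with Dex.

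**Figure D2:**
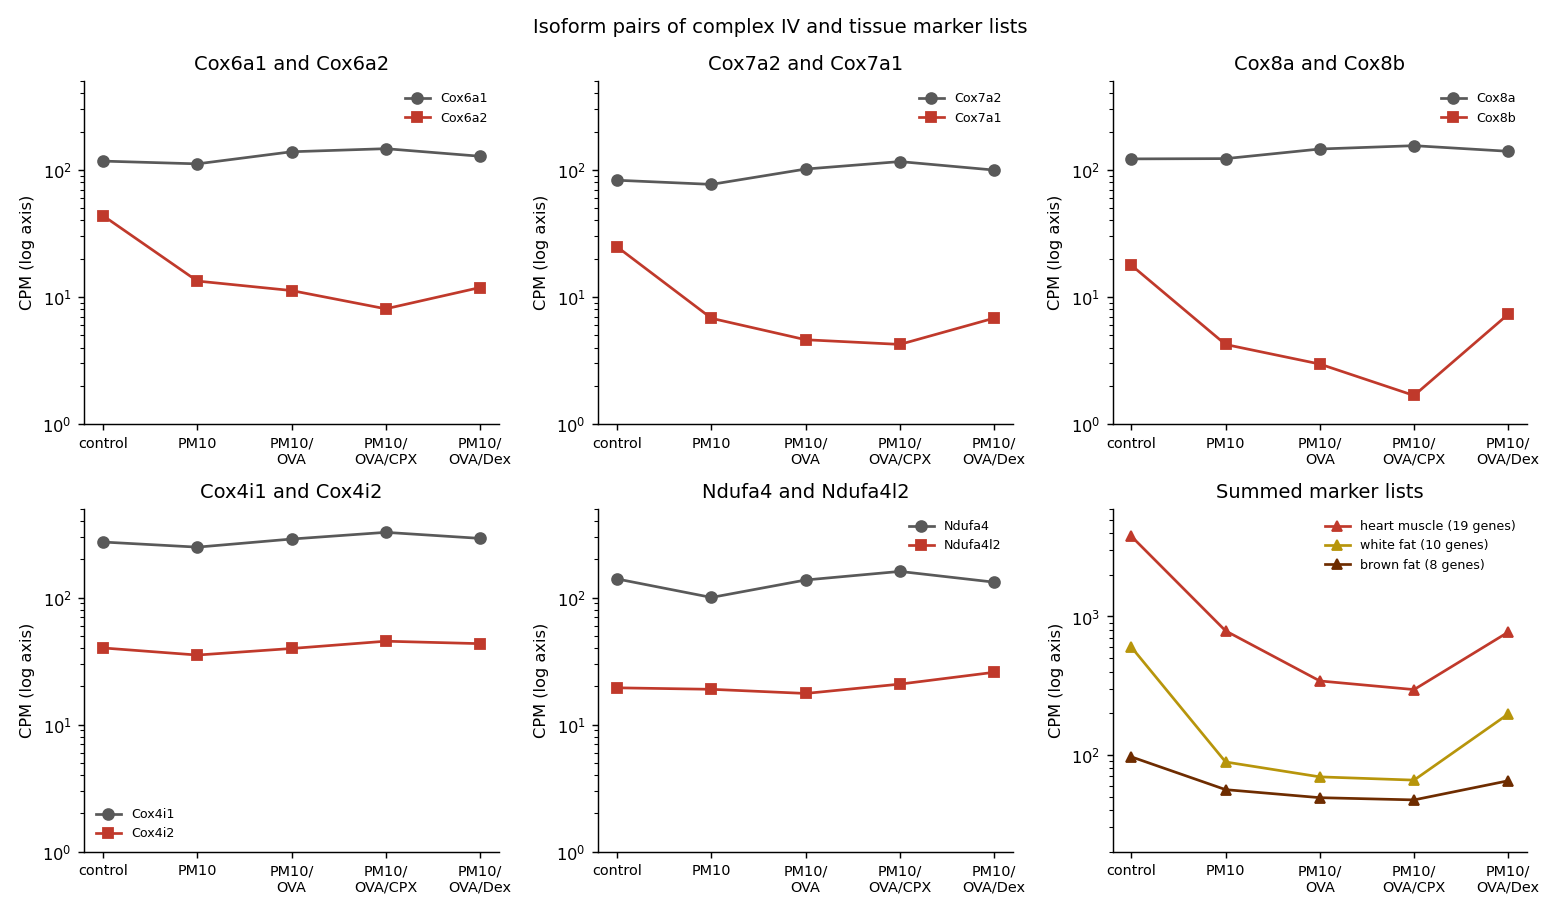
CPM on a log axis in the 5 libraries for 5 pairs of a ubiquitous (grey) and a tissue-restricted (red) member, and the summed CPM of the heart muscle, white fat and brown fat marker lists. Cox6a2, Cox7a1 and Cox8b are lower in PM10 than in control, as are the marker lists. The highest level is 1.285 times the lowest for Cox4i2 and 1.467 times for Ndufa4l2.

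The promoters of some paired isoforms are shown because they differ in sequence. Cox6a2, the muscle isoform paired with Cox6a1, had no matched RefSeq window, so that pair is not compared. The 250 bases upstream of the RefSeq start (GRCm38.p6) are printed 5′ to 3′ on the strand of the gene for Cox7a1 (chr7:30183921-30184170, plus strand), Cox7a2 (chr9:79759854-79760103, minus strand), Cox8b (chr7:140900447-140900696, minus strand), Cox8a (chr19:7217617-7217866, minus strand) and Cox6a1 (chr5:115348959-115349208, minus strand). Capitals mark matches, on either strand, to the letters GCGCANGCG of the NRF1 motif and CCGGAAG of the ETS motif. NRF1 and the ETS factor GABP are known regulators of respiratory chain genes.
Cox7a1: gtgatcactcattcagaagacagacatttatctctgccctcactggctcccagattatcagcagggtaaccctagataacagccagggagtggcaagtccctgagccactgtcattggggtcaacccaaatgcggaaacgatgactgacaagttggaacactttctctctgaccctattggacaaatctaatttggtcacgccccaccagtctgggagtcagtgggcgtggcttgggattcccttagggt
Cox7a2: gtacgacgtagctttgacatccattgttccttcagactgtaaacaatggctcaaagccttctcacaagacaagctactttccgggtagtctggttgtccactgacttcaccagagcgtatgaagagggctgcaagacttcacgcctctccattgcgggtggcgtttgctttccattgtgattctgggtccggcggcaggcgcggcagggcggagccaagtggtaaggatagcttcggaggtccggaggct
Cox8b: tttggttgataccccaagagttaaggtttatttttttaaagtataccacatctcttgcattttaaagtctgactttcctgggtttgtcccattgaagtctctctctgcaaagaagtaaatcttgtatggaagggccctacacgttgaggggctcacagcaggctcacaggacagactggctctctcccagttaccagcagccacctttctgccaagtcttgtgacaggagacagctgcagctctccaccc
Cox8a: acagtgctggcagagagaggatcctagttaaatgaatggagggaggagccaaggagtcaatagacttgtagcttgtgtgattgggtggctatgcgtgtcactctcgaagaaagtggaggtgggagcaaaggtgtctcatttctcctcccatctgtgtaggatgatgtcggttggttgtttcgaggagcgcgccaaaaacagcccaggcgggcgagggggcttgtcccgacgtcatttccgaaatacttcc
Cox6a1: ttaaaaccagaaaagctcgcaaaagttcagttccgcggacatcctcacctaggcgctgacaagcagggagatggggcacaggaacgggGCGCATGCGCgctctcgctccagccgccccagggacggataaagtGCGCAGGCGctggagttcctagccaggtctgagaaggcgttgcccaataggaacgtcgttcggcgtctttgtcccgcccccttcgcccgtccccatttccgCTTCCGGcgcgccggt
The muscle isoforms had 4 (Cox7a1) and 1 (Cox8b) CG dinucleotides in these 250 bases, and the ubiquitous isoforms had 14 (Cox7a2), 11 (Cox8a) and 26 (Cox6a1). Among the 5 windows printed, that of Cox6a1 matched the motifs, the NRF1 letters at 2 places and the ETS letters at 1, without overlap. In the full RefSeq window, which adds the 50 bases after the start, Cox8a also held the ETS letters. The RefSeq table matched 77 of the 96 members, with 82 windows. In these, the NRF1 letters occurred in 25 windows (30.5%) and the ETS letters in 20 (24.4%), against 6.25% and 8.86% of all 32851 RefSeq promoter windows of the same 300 bases. The median number of CG dinucleotides was 19.5 in the members' windows and 7.0 in all windows. Both sets of letters contain CG, and the reference windows were not matched on CG number or on expression. The part of CG number in the motif shares was not tested. A match is a description of the letters and not evidence of binding. Levels of Nrf1, which encodes NRF1, were 27.9 to 33.1 CPM over the 5 libraries, and those of the GABP subunit gene Gabpa were 67.4 to 76.3 CPM.

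Complex V makes ATP. Atp5b (chr10:128083273-128090391, plus strand), the catalytic beta subunit and the member with the highest CPM, was at 710.0 CPM in control, 598 after PM10, 694 after PM10/OVA, 599 with CPX and 620.2 with Dex. Atp5a1, the alpha subunit, was at 637, 527, 591, 505 and 524 CPM. The alpha and beta subunits together summed to 1347, 1125, 1285, 1103 and 1144 CPM, while the 15 other rows of complex V summed to 1591, 1455, 1743, 1842 and 1550 CPM. The order of the libraries therefore differed within complex V. PM10/OVA/CPX was the lowest library for alpha and beta together and the highest for the other rows. Atp5a1 and Atp5b have median transcript lengths of 2572 and 1916 bases, longer than most of the other rows. In PM10/OVA/CPX against PM10/OVA, the smoothed log2 ratio over all measured genes was 0.13 at 500 bases and -0.0021 at 2000 bases. The part of length in this order was not tested. The 3 genes for subunit c, the ring that turns with the passage of protons, also differed. Atp5g1 (chr11:96068852-96075670, minus strand) was at 67.5 CPM in control, 52.9 after PM10, 67.9 after PM10/OVA, 52.5 with CPX and 46.8 with Dex. Atp5g2 was at 102, 111, 126, 141 and 122 CPM, and Atp5g3 at 133, 115, 142, 138 and 128 CPM. Atp5k, a small membrane subunit, was at 65.3, 48.5, 68.1, 71.6 and 55.6 CPM.

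Assembly factors were low genes beside the subunits, with a summed level of 149 CPM in control, 146 after PM10, 166 after PM10/OVA, 186 with CPX and 149 with Dex. Of the 11, 9 were highest in PM10/OVA/CPX. The other two, Ndufaf3 and Ndufaf4, were highest in PM10/OVA. Sdhaf3, an assembly factor of complex II, was at 3.40 CPM in control, 3.31 after PM10, 3.66 after PM10/OVA, 5.43 with CPX and 2.02 with Dex. Ndufaf5, of complex I, was at 5.13, 7.37, 6.31, 7.59 and 6.06 CPM. At such levels counting error is wide, as the intervals below show.

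PM10 against control compares the particle exposure with the control, whose label names no exposure. Most members were lower in the PM10 library: 82 of 94 had a log2 ratio below 0 and 12 above, and their median was -0.14, against -0.0012 over all measured genes. A difference of at least 0.32 on the log2(CPM + 1) scale, which is 25% higher or 20% lower, was set as a threshold. At this threshold 19 members were lower, against 14.5% of all measured genes, and 1 was higher, against 15.6%. The 95% interval of the CPM ratio, which covers counting error only, lay below 1 for 51 members, against 22.6% of all measured genes, and above 1 for 2, against 24.3%. These shares are not matched on level: the median of the mean CPM was 69.3 for the members and 26.4 for all measured genes, and intervals are narrower for abundant genes. Complex III had the lowest median of the complexes, -0.25, followed by complex II at -0.21, complex I at -0.18, complex V at -0.15 and complex IV at -0.13, with the assembly factors at -0.03. All 8 genes of complex III, all 4 of complex II and all 7 core subunits of complex I were below 0.

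In PM10, 3 members were at least 2-fold lower on the same scale, against 2.04% of all measured genes, and none was 2-fold higher, against 3.7%. These were the muscle isoforms, with CPM 3.27-fold lower for Cox6a2 (exact 95% interval 2.75 to 3.90), 3.64-fold lower for Cox7a1 (2.87 to 4.67) and 4.20-fold lower for Cox8b (3.12 to 5.77). The CPM of Ndufs5 was 2.02-fold lower (1.54 to 2.68). Among subunits with no muscle isoform, Ndufv1 was 1.47-fold lower (1.36 to 1.60), Ndufa4 1.40-fold (1.30 to 1.50), Ndufs1 1.37-fold (1.27 to 1.49), Uqcr10 1.35-fold (1.23 to 1.49) and Atp5k 1.35-fold (1.22 to 1.49). The member past the 0.32 threshold in the other direction was Ndufaf5, 1.44-fold higher with an interval of 1.06 to 1.95. Atp5g2 was 1.09-fold higher (1.01 to 1.17). With Cox6a2, Cox7a1, Cox8b and Ndufs5 left out, an alternative chosen after seeing the data, the median over the 90 other members was -0.13 and 15 were lower at the 0.32 threshold.

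Several tissue marker lists differed between the same libraries. All 18 measured heart muscle markers were lower in PM10, with a median log2 ratio of -2.02, as were all 10 white fat markers (-2.62), the 5 measured brown fat markers (-0.71), 12 of 12 pericyte and smooth muscle markers (-0.71), 12 of 12 ciliated cell markers (-0.38) and 5 of 5 club cell markers (-0.76). Alveolar macrophage markers were higher for 8 of 9, with a median of 0.72. The part of these tissues and cells in the lower levels of the members was not tested. The mitochondrial pathways that feed the chain were lower too. All 19 genes of the citric acid cycle list were below 0, with a median of -0.24 and 7 lower at the 0.32 threshold. At that threshold 14.5% of all measured genes were lower. Pdha1, of pyruvate dehydrogenase, was at 250.2 CPM in control and 167 in PM10. For fatty acid oxidation the median was -0.29, with 14 of 15 genes below 0 and 7 lower at the 0.32 threshold. Its muscle isoform Cpt1b was at 15.6 CPM in control and 4.06 in PM10. The 14 electron carrier genes had a median of -0.15, and Cycs, for cytochrome c, was at 90.9 and 72.4 CPM. Mitochondrial ribosomal proteins (0.0022, 77 genes), cytosolic ribosomal proteins (0.02, 75 genes) and glycolysis (0.08, 19 genes) had medians near or above that of all genes. Ppargc1a, a coactivator that drives mitochondrial biogenesis and is also a brown fat marker, was at 8.88 CPM in control, 5.05 after PM10, 3.79 after PM10/OVA, 5.11 with CPX and 6.48 with Dex.

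**Figure D3:**
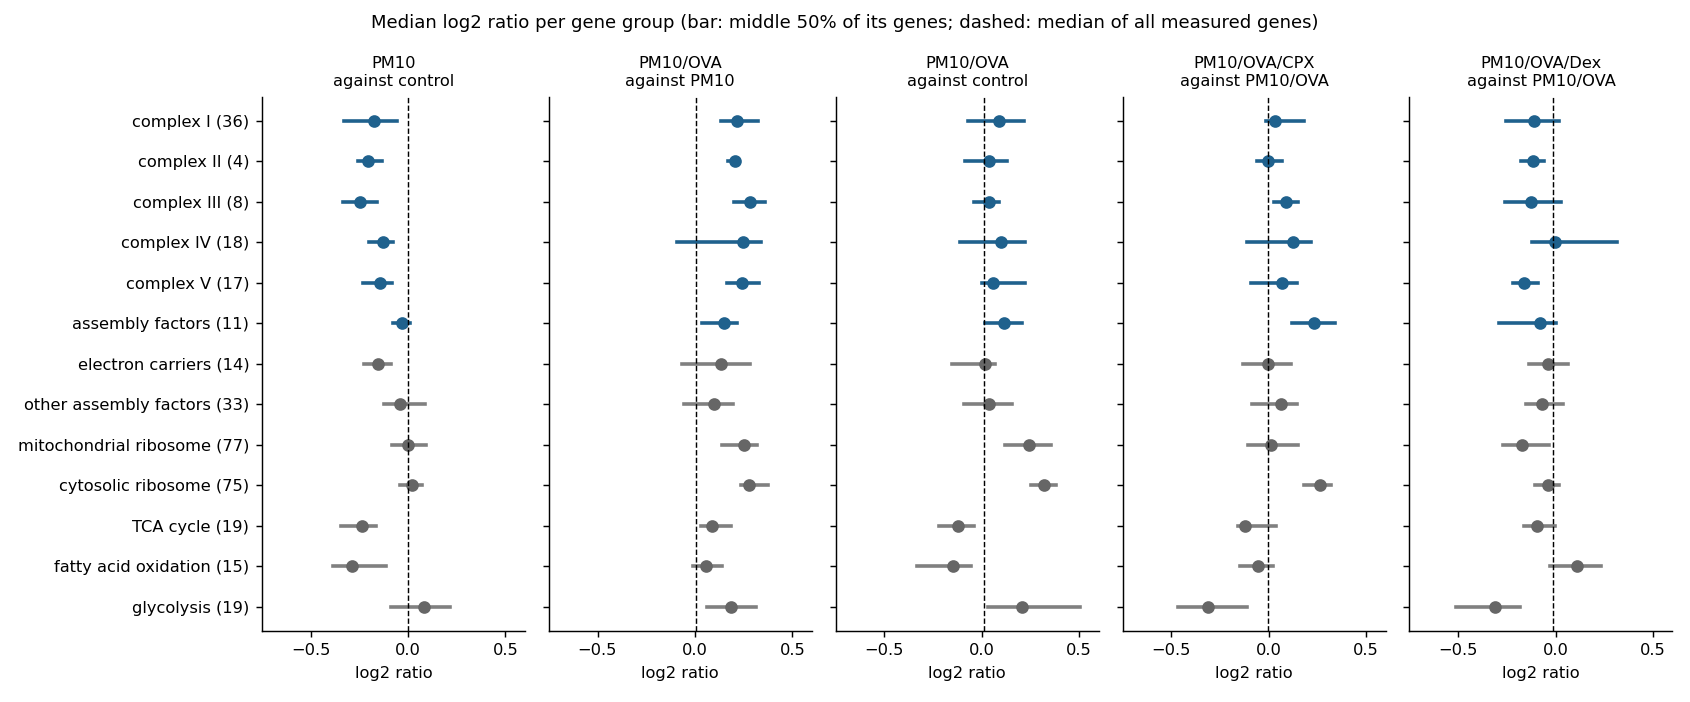
Median log2 ratio on log2(CPM + 1) for the 6 groups of members (blue) and 7 related gene lists (grey) in each of the 5 comparisons. Bars span the middle 50% of the genes of a group, numbers in parentheses are measured genes and the dashed line is the median of all measured genes. In PM10 against control the complexes lie left of the line with the TCA cycle and fatty acid oxidation, and in PM10/OVA against PM10 they lie right of it with both kinds of ribosomal protein.

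PM10/OVA against PM10 compares the added allergen with particles alone. It shares the PM10 library with the comparison above, so its values are not independent of it. Members were mostly higher in PM10/OVA: 84 of 94 had a log2 ratio above 0 and 10 below, with a median of 0.21, against 0.0045 over all measured genes. At the 0.32 threshold, 25 members were higher, against 11.1% of all measured genes, and 2, Cox7a1 and Cox8b, were lower, against 12.9%. The CPM interval lay above 1 for 63 members, against 21.4% of all measured genes, and below 1 for 2, against 20.9%. All 36 genes of complex I, 4 of complex II and 8 of complex III were above 0, as were 16 of 17 rows in complex V and 12 of 18 in complex IV. The exception in complex V was Atp5sl, at -0.22. Medians were 0.28 for complex III, 0.25 for complex IV, 0.24 for complex V, 0.21 for complex I, 0.20 for complex II and 0.15 for assembly factors.

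Ndufs5 was the 1 member at least 2-fold higher, against 0.692% of all measured genes, and none was 2-fold lower, against 1.27%. Its CPM was 2.49-fold higher (1.91 to 3.29). Ndufb2 was 1.46-fold higher, with an interval above 1 that reached 1.72, Atp5k 1.40-fold (1.27 to 1.55), Ndufa4 1.37-fold (1.28 to 1.47) and Ndufs8 1.36-fold (1.23 to 1.50). The muscle isoforms went the other way, with Cox7a1 1.48-fold lower (1.06 to 2.05), Cox8b 1.43-fold lower (0.940 to 2.17) and Cox6a2 1.19-fold lower (0.954 to 1.48), the intervals of Cox8b and Cox6a2 including 1. Heart muscle markers were lower for 18 of 18, with a median of -1.01. Neutrophil markers were at least 2-fold higher for 6 of 6, with a median of 1.55, and white fat markers were below 0 for 9 of 10 (-0.41) and ciliated cell markers for 9 of 12 (-0.11). The part of these cells in the levels of the members was not tested.

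Transcript length moved with this comparison. The members are short, with a median transcript of 763 bases against 2688 for all measured genes with a length. Across the 14200 measured genes with a length, Spearman's rho between length and log2 ratio was -0.33, and across the 93 members with a length it was -0.30. Both describe genes of the same 2 libraries, which are not independent replicates. The 1161 measured genes shorter than 1000 bases had a median of 0.19, the 56 members that short had 0.27 and the 37 longer members had 0.17. With the length trend of all genes removed, the median of the members was 0.08 and 3 members were higher at the 0.32 threshold. Before removal, 11.1% of all measured genes were higher at this threshold. In PM10 against control the trend was weak (rho of -0.06 across genes), and removing it left the median at -0.14 and 19 members lower. Of all measured genes, 14.5% were lower in that comparison before removal. Both kinds of ribosomal protein, which are mostly short genes, were also higher in PM10/OVA than in PM10, with medians of 0.25 (19 of 77 higher at the 0.32 threshold) for mitochondrial and 0.28 (31 of 75) for cytosolic ones. The citric acid cycle median was 0.09, that of fatty acid oxidation 0.06 and that of glycolysis 0.19, with 16 of 19 genes above 0 and 4 higher at the 0.32 threshold. The cause of the length trend was not tested.

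**Figure D4:**
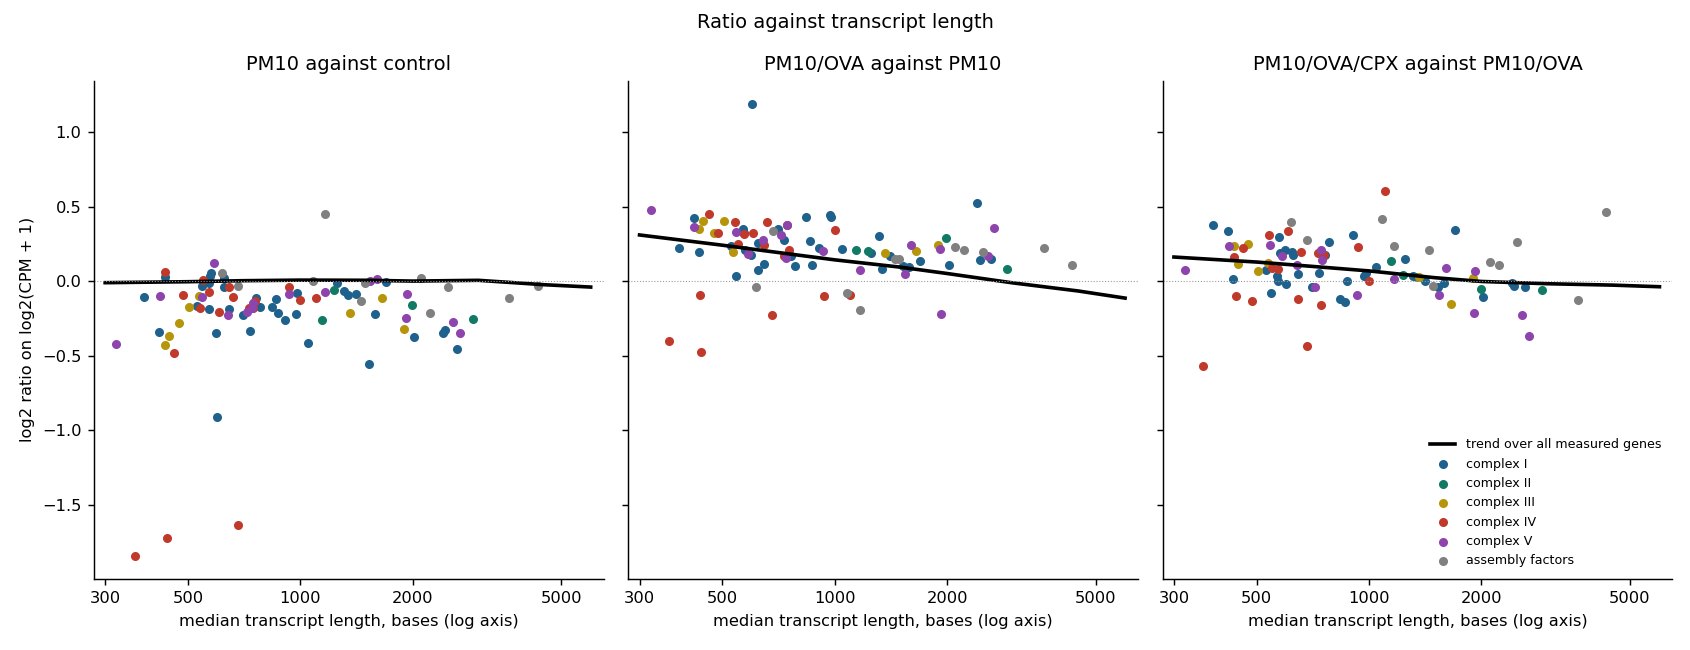
Log2 ratio of each member with a known length against its median transcript length in bases (log axis), coloured by complex, for 3 comparisons, with the smoothed trend over all measured genes as a black line. The trend is flat in PM10 against control, where the members lie mostly below it, and slopes from 0.31 at 300 bases to -0.01 at 3000 bases in PM10/OVA against PM10, where the members lie closer to it.

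PM10/OVA against control compares the full exposure with the control, whose label names none, and shares a library with each comparison above. The members were close to control on balance, with 62 above 0 and 32 below and a median of 0.08, against 0.01 over all measured genes. At the 0.32 threshold, 3 members were higher, against 19.0% of all measured genes, and 4 were lower, against 17.8%. The interval of the CPM ratio lay above 1 for 37 members, against 29.6% of all measured genes, and below 1 for 14, against 27.1%. The higher ones were Ndufa2, 1.29-fold (1.18 to 1.40), Ndufs8, 1.29-fold (1.18 to 1.40), and Ndufb6, 1.27-fold (1.12 to 1.44). The lower ones were Cox8b, 5.99-fold (4.40 to 8.33), Cox7a1, 5.37-fold (4.18 to 6.98), Cox6a2, 3.88-fold (3.29 to 4.60), and Ndufv1, 1.37-fold (1.28 to 1.48), which is named here after its value was seen. At 2-fold the 3 muscle isoforms were lower, against 2.73% of all measured genes, and no member was higher, against 3.17%.

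Complexes had medians from 0.04 (complexes II and III) to 0.10 (complex IV), and the assembly factors 0.11. Within complex I the core subunits had a median of -0.13, with 5 of 7 below 0, and the accessory subunits one of 0.12, with 21 of 29 above 0. With the length trend removed, the median of all members turned to -0.10, so the direction depends on this choice. At the 0.32 threshold 0 members were then higher and 10 lower. Before removal, 19.0% of all measured genes were higher and 17.8% lower. Medians were 0.24 for mitochondrial and 0.32 for cytosolic ribosomal proteins, 0.20 for glycolysis, -0.12 for the citric acid cycle and -0.15 for fatty acid oxidation. Neutrophil markers were higher for 6 of 6 (median 1.95) and alveolar macrophage markers for 8 of 9 (0.70), while heart muscle markers were lower for 18 of 18 (-3.16), white fat markers for 10 of 10 (-2.94), ciliated cell markers for 11 of 12 (-0.59) and club cell markers for 5 of 5 (-0.56). Their part in the levels of the members was not tested.

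PM10/OVA/CPX against PM10/OVA compares mice given both exposures, with the chitinase-1 inhibitor and with no treatment named in the label. The members were slightly higher, with 62 above 0 and 32 below and a median of 0.07, against -0.0043 over all measured genes. At the 0.32 threshold, 8 were higher, against 11.0% of all measured genes, and 3 were lower, against 10.6%. The interval of the CPM ratio lay above 1 for 34 members, against 17.5% of all measured genes, and below 1 for 8, against 20.7%. No member was 2-fold higher (0.636% of all measured genes) or 2-fold lower (0.762%). With the length trend removed, the median was -0.0074, so its direction depends on this choice. At the 0.32 threshold 4 members were then higher. Before removal, 11.0% of all measured genes were higher, and no share after removal is given. Assembly factors had the highest median, 0.23, with 9 of 11 above 0, and complex IV had 0.13, complex III 0.09, complex V 0.07, complex I 0.03 and complex II -0.0057.

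Cox7a2l had the highest ratio of all members, 1.53-fold (1.45 to 1.61). It was followed by Sdhaf3, 1.48-fold (1.03 to 2.14), and Ndufaf6, 1.44-fold with an interval of 0.970 to 2.15 that includes 1. Ndufa6 was 1.30-fold higher (1.20 to 1.42), Ndufs4, an accessory subunit needed for stable complex I, 1.28-fold (1.16 to 1.41) and Cox6c, a ubiquitous subunit of complex IV, 1.26-fold (1.20 to 1.33). The lower members were Cox8b, 1.77-fold (1.04 to 3.11), Cox6a2, 1.39-fold (1.09 to 1.80), and Atp5g1, 1.29-fold (1.17 to 1.43). Atp5b was 1.16-fold lower (1.13 to 1.19) and Atp5a1 1.17-fold lower (1.13 to 1.21).

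Glycolysis genes were lower in PM10/OVA/CPX, with a median of -0.31 and 9 of 19 lower at the 0.32 threshold, against 10.6% of all measured genes. Citric acid cycle genes had a median of -0.12. Cytosolic ribosomal proteins were higher, with a median of 0.26, while mitochondrial ones were at 0.01. The 9 alveolar macrophage markers summed to 1158 CPM in PM10/OVA and 5303 CPM in PM10/OVA/CPX, with none at 0 in either library. Their median log2 ratio was 0.84, with 7 of 9 above 0 and a range from -1.39 for Marco to 3.13 for Chil3, whose sequence is close to that of Chil4. Ciliated cell markers were higher for 11 of 12, with a median of 0.40, and neutrophil markers were below 0 for 5 of 6, with a median of -0.40. The part of these cells in the levels of the members was not tested.

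PM10/OVA/Dex against PM10/OVA compares mice given both exposures, with dexamethasone and with no treatment named in the label. It shares the PM10/OVA library with the comparison above. Most members were lower, with 66 below 0 and 28 above and a median of -0.11, against -0.01 over all measured genes. At the 0.32 threshold, 8 were lower, against 15.2% of all measured genes, and 5 were higher, against 13.9%. Both shares were below those of all genes. The CPM interval lay below 1 for 44 members, against 24.0% of all measured genes, and above 1 for 6, against 22.1%. Medians were -0.16 for complex V, -0.12 for complexes II and III, -0.11 for complex I, -0.08 for assembly factors and -0.0045 for complex IV. With the length trend removed, the median was -0.06 and 5 members were lower at the 0.32 threshold. Before removal, 15.2% of all measured genes were lower, and no share after removal is given.

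Ndufs5 was the 1 member 2-fold lower, against 1.6% of all measured genes, at 2.94-fold lower CPM (2.21 to 3.96), and Cox8b the 1 member 2-fold higher, against 1.2%, at 2.47-fold higher CPM (1.71 to 3.60). Sdhaf3 was 1.81-fold lower (1.11 to 3.05) and Atp5g1 1.45-fold lower (1.31 to 1.61). Cox5b, a ubiquitous subunit of complex IV, was 1.34-fold lower (1.24 to 1.46). Cox6a2, the other muscle isoform, was at a ratio of 1.06 with an interval of 0.841 to 1.33 that includes 1. On the higher side stood Cox7a1 at 1.48-fold (1.07 to 2.06), Ndufa4l2 at 1.47-fold (1.24 to 1.73), Cox7a2l at 1.36-fold (1.29 to 1.44) and Cox6b2 at 1.35-fold (1.01 to 1.79). All 5 members past the 0.32 threshold on this side belong to complex IV by the grouping used here, and 4 of them are tissue isoforms.

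Heart muscle markers were higher in PM10/OVA/Dex than in PM10/OVA for 18 of 18, with a median of 0.96, and white fat markers for 10 of 10, with a median of 1.49. Neutrophil markers were lower for 6 of 6 (median -0.93), club cell markers higher for 5 of 5 (0.62), ciliated cell markers higher for 11 of 12 (0.37) and alveolar macrophage markers higher for 7 of 9 (0.42). The pericyte gene Rgs5 was at 8.33 CPM in PM10/OVA and 27.8 in PM10/OVA/Dex, and the 12 pericyte and smooth muscle markers had a median of 0.22, with 9 above 0. The part of these tissues and cells in the levels of the members was not tested. Mitochondrial ribosomal proteins had a median of -0.17, with 13 of 77 lower at the 0.32 threshold, against 15.2% of all measured genes. The median of glycolysis was -0.31, with 9 of 19 lower. Medians were -0.10 for the citric acid cycle and 0.11 for fatty acid oxidation. The 15 regulators of mitochondrial biogenesis had a median of 0.16, with 12 above 0.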

How the data were processed

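RNA from 5 whole-lung libraries was made into sequencing libraries with a directional (strand-keeping) kit, per the labels' protocols, and reads were aligned with TopHat to mm10, per the submitters' processing notes. Aligner version, counting tool, annotation and strand setting were not given in the sources used here. Each deposited file holds raw whole-number counts per gene symbol. From these, CPM were computed with TMM factors over the 5 libraries (edgeR 4.0.16, R 4.3.3). Ratios are differences of log2(CPM + 1), a scale that shrinks those of low genes. Folds of named genes are CPM ratios with exact conditional 95% intervals (scipy 1.17.1), and these cover counting error only. With 1 library per group no test was possible. Positions and lengths come from GENCODE M21 (GRCm38), copies from blastn 2.17.0, and promoters from RefSeq (GRCm38.p6). The calculations were tested on simulated data. The members, gene lists, the 0.32 threshold and the alternatives were chosen with earlier results of these data known. Named genes were the isoform pairs, complex II, the most abundant gene of each complex, the 3 highest and 3 lowest ratios per comparison and the 3 widest ranges, and others were added after their values were seen. A gene that this rule names is not reported here. Alternatives were DESeq2 (1.42.0) size factors, library totals, other pseudocounts (0.25 and 5), a minimum of 5 CPM, no minimum, and removal of the length trend.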

Additional observations from a re-analysis of the deposited data

How the results depend on the processing

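Of 135 alternative values of the medians and counts of members, 114 kept their direction and stayed within set limits, which were 1.5 times for a count and, for a median, the typical half-width of the members' counting intervals. Of 340 alternative CPM ratios of named members 339 did. The exception was Atp5b in PM10/OVA against control, at a ratio of 0.943 with library totals. A CPM ratio uses no pseudocount and no minimum, and the length trend was removed on the log2(CPM + 1) scale. With scaling factors from 0.989 to 1.02, library totals could move such a ratio only a little. The agreement of the CPM ratios was thus largely set in advance. Among the medians and counts, those with no minimum could not differ. The members below the minimum, Cox7b2 and Cox8c, had 0 counts in all 5 libraries and stayed out. Within the set limits, removing the length trend still brought the median from 0.21 to 0.08 in PM10/OVA against PM10. In PM10/OVA/Dex against PM10/OVA it brought the median from -0.11 to -0.06. Library totals gave 0.03 instead of 0.08 in PM10/OVA against control. Removing the length trend reversed the median in PM10/OVA against control (-0.0975) and in PM10/OVA/CPX against PM10/OVA (-0.0074); the cause was not tested. It moved the number of members past 0.32 on the log2 scale to 3 higher and 4 lower in PM10/OVA against PM10, 0 higher and 10 lower in PM10/OVA against control, 4 higher in PM10/OVA/CPX against PM10/OVA and 5 lower in PM10/OVA/Dex against PM10/OVA. With a pseudocount of 5, which shrinks low genes, the counts were 0 higher in PM10 against control, 0 lower in PM10/OVA against PM10, 4 higher and 1 lower in PM10/OVA/CPX against PM10/OVA, and 3 higher and 5 lower in PM10/OVA/Dex against PM10/OVA. Library totals gave 0 higher in PM10/OVA against control. Shares of all measured genes are given above for the main setting only, so counts under the alternatives have no matching share beside them.

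Both alternatives that leave out genes were chosen after seeing the data. Without Cox6a2, Cox7a1, Cox8b and Ndufs5 the counts were 0 lower in PM10/OVA against PM10, 1 lower in PM10/OVA against control, 1 lower in PM10/OVA/CPX against PM10/OVA and 3 higher in PM10/OVA/Dex against PM10/OVA. Without assembly factors, Atp5s and Atp5sl they were 0 higher in PM10 against control and 5 higher in PM10/OVA/CPX against PM10/OVA. No paired analysis was possible because each group has 1 library. For the same reason no library could be left out of a group, and differences between animals, dissections and conditions cannot be told apart. Depth limits the low members, Sdhaf3, Ndufaf6, Cox8b and Cox7a1, whose intervals are wide.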
